A study of Mus musculus with 4 samples.

Results

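The cornified envelope and barrier genes are a set of 40 genes that build, crosslink, seal or shed the dead outer layer of the epidermis. They were taken by gene symbol from the array's annotation: 38 of the 40 had a probe set that names the gene alone, and 32 of these 38 lay above the intensity filter and were tested, within 10916 genes tested of 18193 measured. Flg2 and Sprr4 had no such probe set and were not analysed here. Whole dorsal skin of male C57B6 mice, an inbred laboratory strain, was profiled in late telogen at postnatal day 59 (P59, 2 arrays) and in middle telogen at postnatal day 54 (P54, 2 arrays). Telogen is the resting phase of the hair cycle. No genotype or treatment other than age is given for either group. The labels call the arrays biological replicates without saying which animals, or how many, made up a sample. The p-values therefore rest on the spread between these samples, drawn towards the typical spread of all genes tested. All values below are log2 of the deposited RMA intensity of 1 probe set, and differences are P59 minus P54 means of log2 intensity. Intensities of different probe sets are not on one scale, so levels are compared between arrays and never between genes.

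Keratinocytes that leave the basal layer move outward, and in the granular layer they replace their plasma membrane with the cornified envelope, a protein shell crosslinked by transglutaminases. Involucrin, envoplakin and periplakin are laid down early under the membrane, loricrin and the small proline-rich (SPRR) and late cornified envelope (LCE) proteins reinforce the shell, and lipids attached to its outer face seal the barrier. Filaggrin bundles keratin filaments and is later cut into amino acids that hold water, while serine proteases cut the corneodesmosomes so that dead cells are shed.

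In the RefSeq annotation 20 of the 40 members lie on chromosome 3, in the epidermal differentiation complex, where the run of genes that begins with Lor and ends with Rptn holds 49 protein-coding genes. Sbsn, Dmkn and Krtdap are neighbours on chromosome 7. RefSeq promoter windows, 250 bases before to 50 bases after each annotated start, were at hand for 33 members. The 100 bases before the start of the 6 Lce1 genes with a window are shown first. They were picked because the brightest sets of these genes had the same order of values over the arrays, which those of Lor and Crct1 shared (below). Each stretch is printed 5' to 3' on the strand of the gene. Capitals mark 3 runs of 7 bases, the longest that at least 5 of the 6 windows share. The first is TCACAGG, the next is CAGAGCC and the last is TAAAAGG. Capitals also mark the TATA box letters, written TATAAA, which overlap the last run in Lce1d and Lce1m.
Lce1a1, GRCm38.p6 chr3:92648308-92648407, minus strand: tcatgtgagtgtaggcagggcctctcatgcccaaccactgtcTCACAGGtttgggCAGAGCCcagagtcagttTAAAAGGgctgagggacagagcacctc
Lce1b, GRCm38.p6 chr3:92656927-92657026, minus strand: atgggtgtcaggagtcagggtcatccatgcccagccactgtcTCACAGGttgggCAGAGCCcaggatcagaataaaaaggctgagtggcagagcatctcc
Lce1a2, GRCm38.p6 chr3:92670316-92670415, minus strand: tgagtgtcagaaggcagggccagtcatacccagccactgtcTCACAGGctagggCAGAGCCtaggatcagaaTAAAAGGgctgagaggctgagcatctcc
Lce1c, GRCm38.p6 chr3:92679147-92679246, plus strand: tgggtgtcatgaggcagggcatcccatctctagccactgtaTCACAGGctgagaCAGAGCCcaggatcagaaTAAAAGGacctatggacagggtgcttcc
Lce1d, GRCm38.p6 chr3:92687211-92687310, minus strand: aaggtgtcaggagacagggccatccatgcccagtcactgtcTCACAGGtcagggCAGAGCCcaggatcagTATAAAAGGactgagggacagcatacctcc
Lce1m, GRCm38.p6 chr3:93019062-93019161, minus strand: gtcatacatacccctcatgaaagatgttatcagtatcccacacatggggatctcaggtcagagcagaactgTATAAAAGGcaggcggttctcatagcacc

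The runs were chosen from these sequences and stood at nearly the same place: the first began 58 or 59 bases before the start, the next 45 or 46 and the last 27 or 28. In the same 100 bases of all 32851 promoter windows, read on the strand of the gene, the first was found in 1.17%, the next in 1.94% and the last in 1.14%. Of those 32851 windows 5 held all 3 runs, those of Lce1a1, Lce1a2, Lce1c, Lce1d and Lce1e, a gene of the same family that is not among the 40. Lce1m held the last run alone, and Lce1b held the other two. Over the 250 bases before the start the other 5 Lce1 windows were 58.7% to 73.8% identical in pairs, and Lce1m was 48.1% to 51.7% identical to them. The median over the 513 other pairs of members was 46.4%.

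The second set of sequences belongs to the members with some of the clearest differences between the groups: Rptn, Sprr1a and Tgm3, which were higher at P59, and Tgm5, which was lower. Their 250 bases before the start are printed with the AP-1 letters TGANTCA and the TATA box letters TATAAA in capitals.
Rptn, GRCm38.p6 chr3:93393449-93393698, plus strand: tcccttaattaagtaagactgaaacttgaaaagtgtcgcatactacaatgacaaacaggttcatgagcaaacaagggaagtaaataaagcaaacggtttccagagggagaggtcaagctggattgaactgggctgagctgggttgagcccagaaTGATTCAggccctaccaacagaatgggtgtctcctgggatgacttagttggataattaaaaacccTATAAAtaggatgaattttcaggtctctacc
Sprr1a, GRCm38.p6 chr3:92485882-92486131, minus strand: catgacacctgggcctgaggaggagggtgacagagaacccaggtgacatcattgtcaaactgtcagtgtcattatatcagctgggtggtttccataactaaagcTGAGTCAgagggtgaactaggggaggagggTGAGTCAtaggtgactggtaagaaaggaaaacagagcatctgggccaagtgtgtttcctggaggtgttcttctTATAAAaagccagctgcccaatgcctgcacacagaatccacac
Tgm3, GRCm38.p6 chr2:130012090-130012339, plus strand: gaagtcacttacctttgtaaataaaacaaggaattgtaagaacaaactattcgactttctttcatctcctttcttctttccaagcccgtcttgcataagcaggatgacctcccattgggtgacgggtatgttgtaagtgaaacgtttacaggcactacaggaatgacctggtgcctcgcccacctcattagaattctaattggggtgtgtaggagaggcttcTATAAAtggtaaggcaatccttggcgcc
Tgm5, GRCm38.p6 chr2:121085842-121086091, minus strand: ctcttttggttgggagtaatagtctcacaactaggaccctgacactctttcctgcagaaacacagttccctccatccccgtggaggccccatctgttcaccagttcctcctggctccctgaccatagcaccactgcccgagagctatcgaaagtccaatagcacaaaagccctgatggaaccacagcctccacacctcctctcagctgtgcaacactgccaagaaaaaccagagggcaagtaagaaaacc

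TGANTCA, with any base at N, is a loose form of the letters that the AP-1 family recognises. AP-1 binding is long known in keratinocyte promoters. TGANTCA was found on either strand in 14 of 37 member windows (37.8%) and in 7.81% of all 32851 windows. The 14 windows belong to 12 genes: Rptn, Flg, Flg2, Ivl, Lor, Sprr1a, Sprr1b, Sprr2d and Sprr2h on chromosome 3 and Sbsn, Dmkn and Krtdap on chromosome 7. Sprr1a held it at 146 and 116 bases before its start, both as TGAGTCA, and Rptn at 96, as TGATTCA. Among the Lce1 windows, 0 of 6 held it. TATAAA was found in 13 of 37 member windows (35.1%) and in 13.6% of all windows. On the strand of the gene and beginning 20 to 40 bases before the start, it was found in 11 of 37 member windows and in 1.99% of all windows. AACCGGTT, the grainyhead letters, was found in 0 of 37 member windows and in 0.146% of all. Tgm5 held none of these motifs. These matches describe letters in a window and are not binding sites, and some members share them as copies of one gene family.

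**Figure D1:**
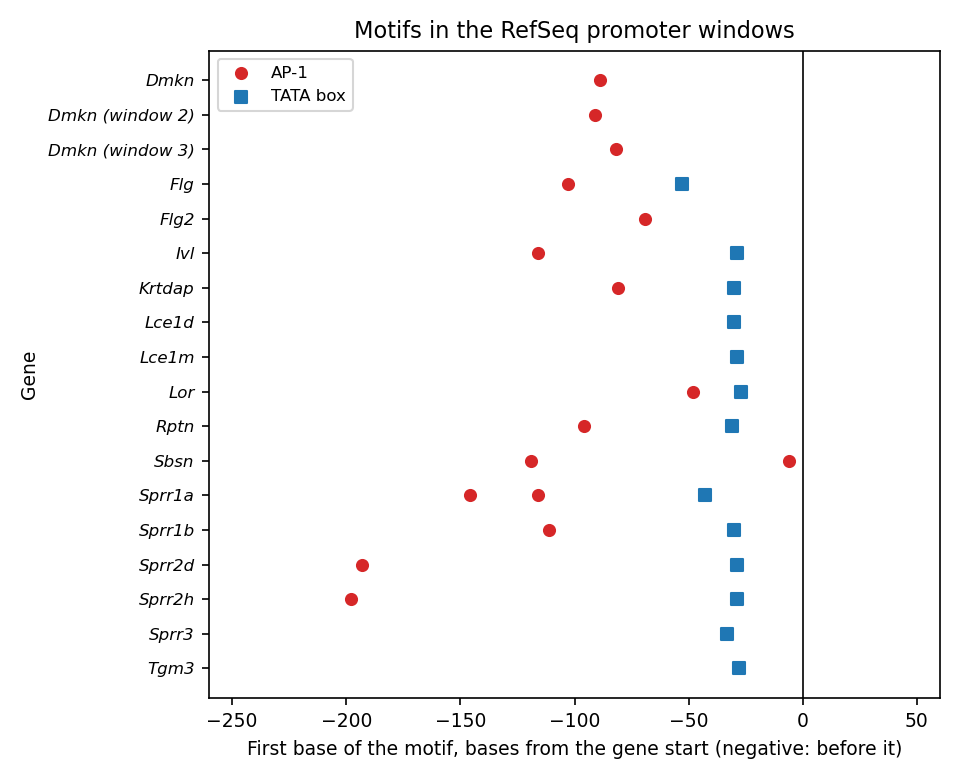
Position of the AP-1 (TGANTCA, circles) and TATA box (TATAAA, squares) letters in the RefSeq promoter windows of the members that hold one, in bases from the annotated start (vertical line). Most TATA boxes stand about 30 bases before the start, while AP-1 letters are spread from 198 to 6 bases before it.

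The 4 arrays had median intensities of 67.2 and 64.7 at P59 and 66.9 and 69.3 at P54. Pairs of arrays had Spearman correlations across tested genes of 0.915 to 0.976, and the first principal component set P59 replicate 2 (35.4) against the other 3 arrays (-22.5 to -4.31). The basal keratins Krt5 and Krt14 and the spinous keratins Krt1 and Krt10 were above the intensity filter. Krt2, another keratin of the upper epidermis, was below it. Over all 10916 genes, limma called 2 genes higher at P59 (0.0183%) and 0 lower (0%) at an adjusted p of 0.05, and neither is a member, while 708 genes had an unadjusted p under 0.05. In whole skin, fewer cells of a type and less RNA per cell cannot be told apart.

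None of the 32 tested members passed limma's adjusted threshold, and the smallest adjusted p among them was 0.179, for Tgm5. Most were slightly lower at P59: the difference was below 0 for 27 of 32 members, beside 41.6% of all genes tested, and the median difference was -0.33 for the members and 0.05 for all genes tested. At an unadjusted limma p under 0.05, 3 members were higher at P59 (3.47% of all genes tested) and 4 were lower (3.01% of all genes tested). These were Rptn, Sprr1a and Tgm3 on the higher side and Tgm5, Tgm1, Cnfn and Evpl on the lower side. In 3 members both P59 arrays lay above both P54 arrays (18.9% of all genes tested), and in 16 members both lay below (14.8% of all genes tested). All 16 lie outside chromosome 3, where 19 members were tested, and none of the 13 tested members on chromosome 3 is among them. These counts read each gene from its brightest set. In a second bright set of Lor, on chromosome 3, both P59 arrays lay below both P54 arrays. In a further set of Sbsn, on chromosome 7, the groups overlapped. The members differed by over 1.5-fold on the higher side in 3 cases (3.63% of all genes tested) and on the lower side in 8 (3.87%). The split by chromosome was noticed after the values were seen and was not tested. Among the 38 members with a probe set the median difference was -0.33.

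**Figure D2:**
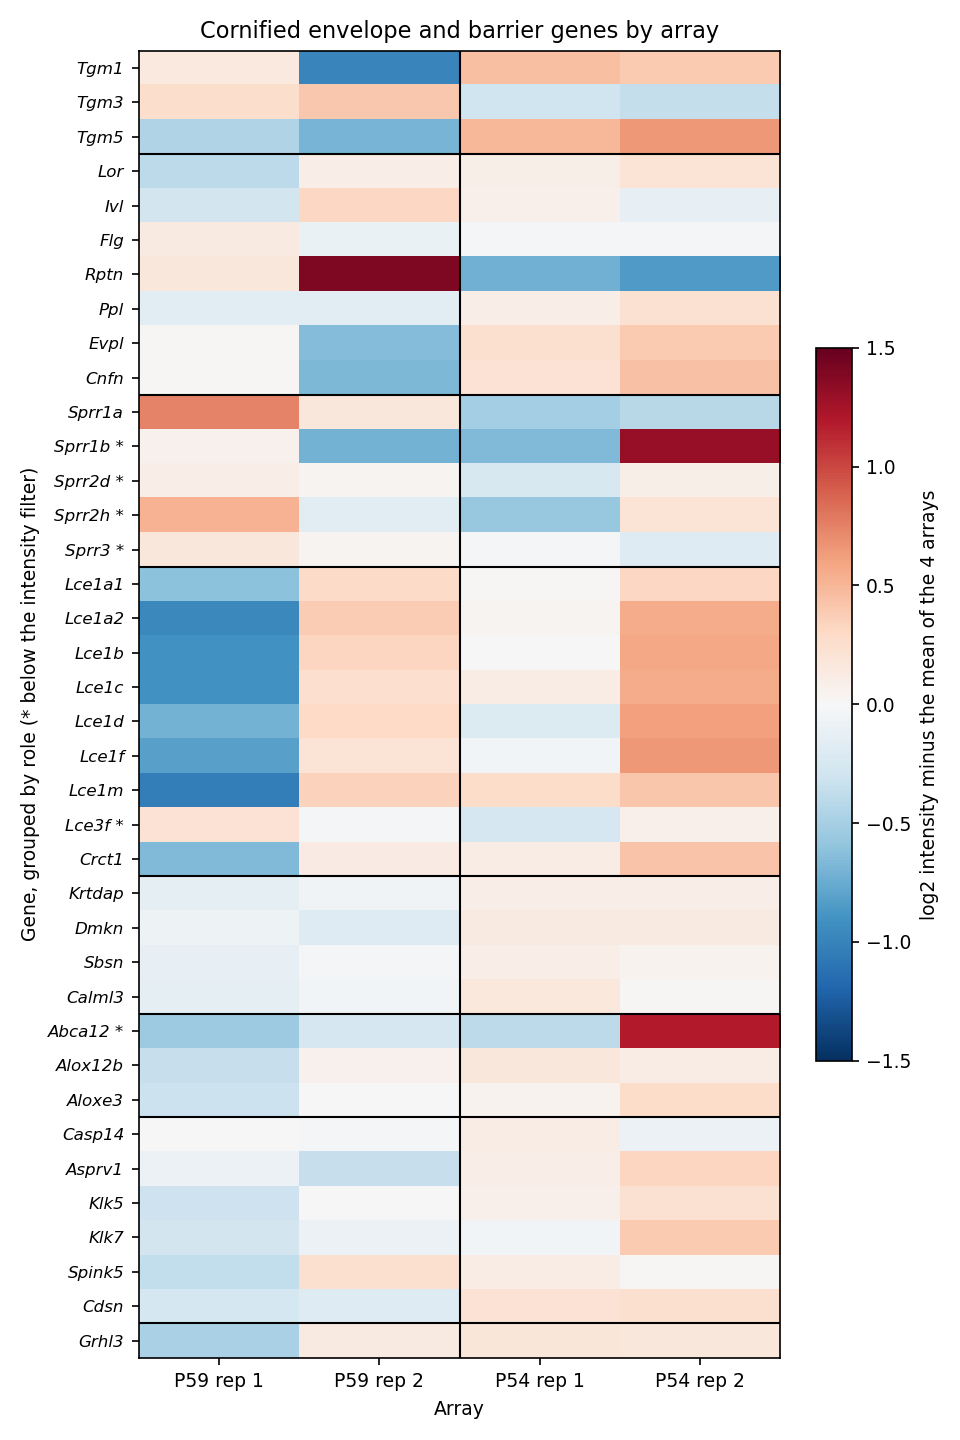
Heat map of the 38 members with a probe set (rows, grouped by role; an asterisk marks the 6 below the intensity filter) on the P59 and P54 arrays (columns), in log2 intensity minus the mean of the gene over the 4 arrays. The Lce1 rows are lowest in P59 replicate 1, Rptn is highest and Tgm1 lowest in P59 replicate 2, and the 2 P54 columns are alike for most tested rows.

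**Figure D3:**
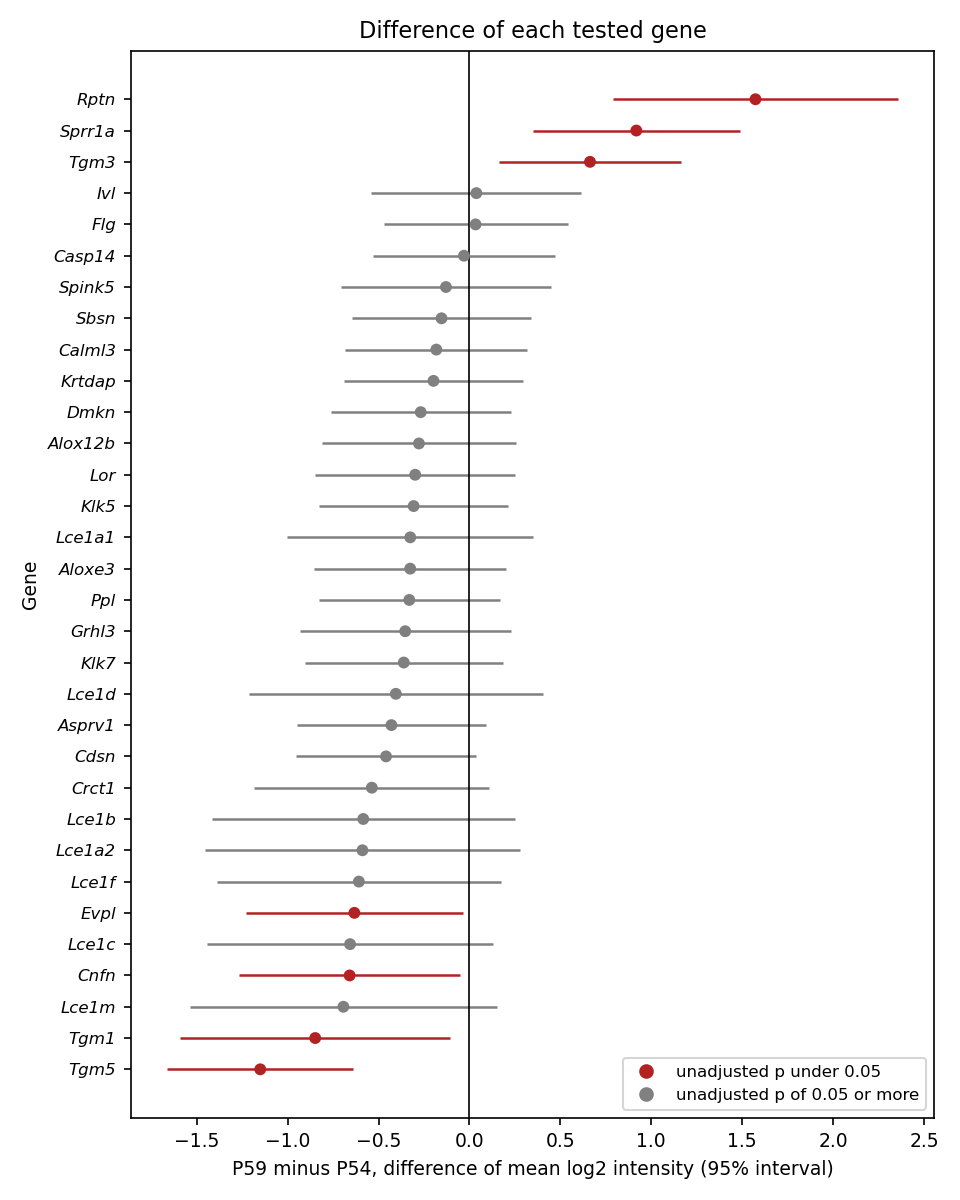
Difference of mean log2 intensity, P59 minus P54, of the 32 tested members with limma's 95% interval (n = 2 arrays per group). The 7 members in red have an unadjusted p under 0.05, and 27 of the 32 points lie below 0.

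The 2 arrays of P59 did not carry the lower values evenly. P59 replicate 1 held the lowest of the 4 values in 21 of 32 members (26.6% of all genes tested), and P59 replicate 2 in 7 (23.3%). P54 replicate 1 held it in 1 member (8.11%) and P54 replicate 2 in 3 (42%). Without P59 replicate 1 the median difference of the members was -0.094, with 23 of 32 below 0, and without P59 replicate 2 it was -0.44, with 28 of 32 below 0.

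The 3 transglutaminases, the enzymes that crosslink the envelope, differed in direction: 1 was higher at P59 and 2 were lower. Tgm5, an enzyme of the upper epidermis, had log2 intensities of 8.78 and 8.54 at P59 and of 9.73 and 9.88 at P54. The groups were well apart and the replicates of each group were close, and the P59 mean was 2.22-fold lower (difference -1.15, SE 0.23, limma adjusted p = 0.179). Tgm1, the membrane-bound enzyme that anchors envelope proteins and lipids, was at 8.37 and 7.24 at P59 and at 8.68 and 8.62 at P54. Both P59 arrays were lower, but P59 replicate 2 much more so (difference -0.85, SE 0.33, limma adjusted p = 0.698). Tgm3, the epidermal and hair follicle enzyme that is activated by cleavage, was at 7.50 and 7.65 at P59 and at 6.94 and 6.88 at P54, so that both P59 arrays were higher. The P59 mean was 1.58-fold higher (difference 0.66, SE 0.22, limma adjusted p = 0.583), and its other probe set differed by 0.49. Leaving out P59 replicate 1 gave differences of -1.41 for Tgm1 (limma adjusted p = 0.0175) and -1.27 for Tgm5 (limma adjusted p = 0.0252). That fit has 1 array left at P59, takes its spread from the P54 pair alone on the assumption that P59 varies alike, and called 402 of all 10916 genes, with 2030 at an unadjusted p under 0.05. Leaving out each of the other arrays gave -0.88 to -0.28 for Tgm1 (limma adjusted p from 0.973 to 1) and -1.23 to -1.03 for Tgm5 (limma adjusted p from 0.235 to 1).

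**Figure D4:**
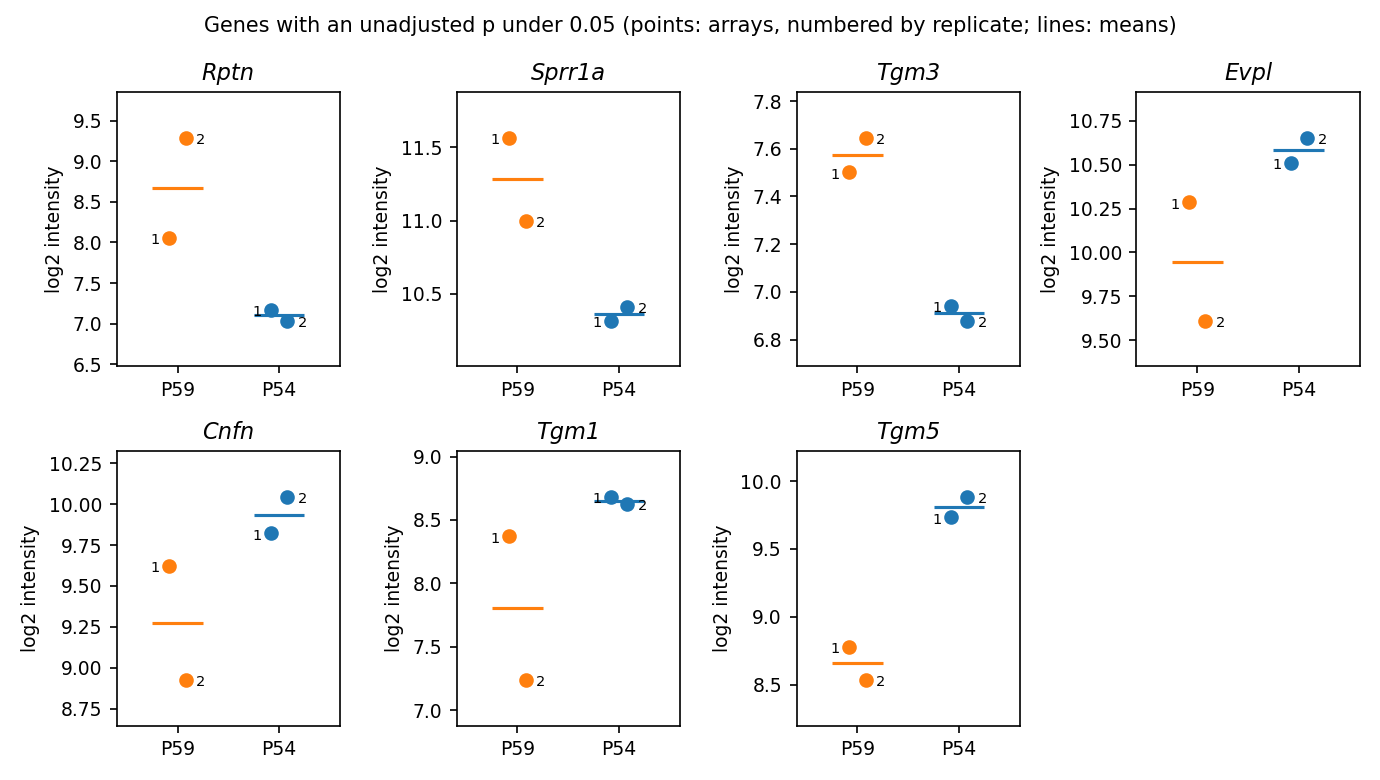
Log2 intensity of the 7 members with an unadjusted p under 0.05 on each array (points, numbered by replicate), with the group mean as a line, P59 left of P54; each panel has its own axis. The P54 arrays are close together in every panel, while the P59 arrays lie over 1 log2 unit apart for Rptn and Tgm1.

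Among the scaffold and filament proteins, the groups overlapped in the brightest sets of loricrin, involucrin and filaggrin, and repetin was higher at P59. Lor, which encodes loricrin, the main protein of the mature envelope, was at 13.40 and 13.89 at P59 and at 13.89 and 14.00 at P54 (difference -0.30, limma adjusted p = 0.934). P59 replicate 2 reached the level of P54 replicate 1, so the groups overlapped narrowly in this set. A second bright set of Lor was at 12.99 and 13.15 at P59 and at 13.24 and 13.33 at P54. There both P59 arrays lay below both P54 arrays (difference -0.21). The remaining set of Lor was dim, averaging 5.14, and differed by 0.17. Ivl, which encodes the early scaffold involucrin, was at 9.84 and 10.43 at P59 and at 10.20 and 9.998 at P54, with a difference of 0.04 (95% interval -0.54 to 0.62). Flg, which encodes filaggrin, was at 10.14 and 9.90 at P59 and at 9.99 and 9.99 at P54, with a difference of 0.03 (95% interval -0.47 to 0.54). The P59 values of Ivl and Flg lay on both sides of the P54 values.

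Rptn encodes repetin, an S100-fused envelope precursor of the filaggrin family known, in human skin, from the inner root sheath and from scattered epidermal cells. It was at 8.06 and 9.29 at P59 and at 7.17 and 7.04 at P54. Both P59 arrays were above both P54 arrays and were 1.23 apart from each other, and the P59 mean was 2.98-fold higher (difference 1.57, SE 0.35, limma adjusted p = 0.282). Without P59 replicate 1 the difference was 2.19 (limma adjusted p = 0.00602), and without P54 replicate 1 it was 1.64 (limma adjusted p = 0.0205). Without P59 replicate 2 it was 0.96 (limma adjusted p = 0.264), and without P54 replicate 2 it was 1.51 (limma adjusted p = 0.102). Each of these fits has 1 array left at one age, which is assumed to vary like the pair at the other. Its other 2 probe sets were dim, averaging 4.60 and 3.72, and differed by 0.16 and 0.20.

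The plakins that join the envelope to desmosomes were lower at P59, without passing the adjusted threshold. Evpl, which encodes envoplakin, was at 10.29 and 9.61 at P59 and at 10.51 and 10.65 at P54 (difference -0.63, SE 0.27, limma adjusted p = 0.744). Its partner periplakin, encoded by Ppl, was at 11.25 and 11.27 at P59 and at 11.53 and 11.66 at P54 (difference -0.33, limma adjusted p = 0.908). Both P59 arrays lay below both P54 arrays for each plakin, evenly for Ppl and mainly in replicate 2 for Evpl. Cnfn, which encodes cornifelin, a small envelope protein, was at 9.62 and 8.93 at P59 and at 9.82 and 10.04 at P54 (difference -0.66, SE 0.27, limma adjusted p = 0.743). Without P59 replicate 2 Evpl differed by -0.30 and Cnfn by -0.31.

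Of the 6 SPRR genes, whose proteins bridge other envelope proteins and several of which are known to increase when the barrier is stressed, 1 was tested. Sprr1a was at 11.57 and 10.998 at P59 and at 10.32 and 10.41 at P54. Both P59 arrays were higher, and the P59 mean was 1.89-fold higher (difference 0.92, SE 0.26, limma adjusted p = 0.460). Sprr1b, Sprr2d, Sprr2h and Sprr3 had means below the filter, as did Lce3f and Abca12, and none of these 6 was tested. Sprr1b was at 5.75 and 4.98 at P59 and at 5.03 and 6.996 at P54, with P54 replicate 2 far above the other 3 arrays. The Sprr2 genes are close copies of each other and the set of Sprr2h is of the _s_at kind, which can match several transcripts, so their single values are uncertain.

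The LCE genes encode small proteins rich in cysteine and glycine that are added late to the shell. They differed more between the P59 arrays than between the ages. In the brightest sets of all 7 Lce1 genes (Lce1a1, Lce1a2, Lce1b, Lce1c, Lce1d, Lce1f and Lce1m) the arrays ran, from high to low, P54 replicate 2, P59 replicate 2, P54 replicate 1 and P59 replicate 1. This order was found in 9 tested members, the 7 Lce1 genes, Lor and Crct1, and in 2.1% of all genes tested. Away from the brightest sets, a second bright set of Lor did not have it and a further set of Sbsn did. Lce1m was at 10.40 and 11.78 at P59 and at 11.71 and 11.86 at P54. Lce1a2 was at 10.67 and 12.02 at P59 and at 11.67 and 12.19 at P54. In both genes P59 replicate 1 was the lowest by about 1 log2 unit or more, and the groups overlapped. P59 replicate 2 exceeded P59 replicate 1 by 0.90 to 1.38 over the 7 genes, and P54 replicate 2 exceeded P54 replicate 1 by 0.15 to 0.82. The differences between the ages were -0.69 to -0.33, with limma adjusted p-values of 0.861 or more. Without P59 replicate 1 they were -0.10 to 0.12, and without P59 replicate 2 they were -1.38 to -0.78.

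Crct1, a neighbour of the LCE genes, was also lowest in P59 replicate 1, at 11.71, against 12.50 in P59 replicate 2 and 12.49 and 12.80 at P54. Lce3f had a mean below the filter. The Lce1 genes are close copies of each other, and the probe sets of Lce1a1 and Lce1d are of the _x_at kind and that of Lce1m of the _s_at kind, which can match several transcripts. Values of single Lce1 genes are therefore uncertain, and how much of their likeness is shared signal was not tested. A second set of Lce1a1, of the plain _at kind, was at 10.09 and 11.05 at P59 and at 10.74 and 11.10 at P54, close to the first. A second set of Lce1f, with a mean of 6.37 below the filter, did not have the order of arrays of the brightest set. It was at 5.72 and 6.98 at P59 and at 6.27 and 6.50 at P54, highest in P59 replicate 2, with a difference of -0.03 against -0.61 for the brightest set.

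**Figure D5:**
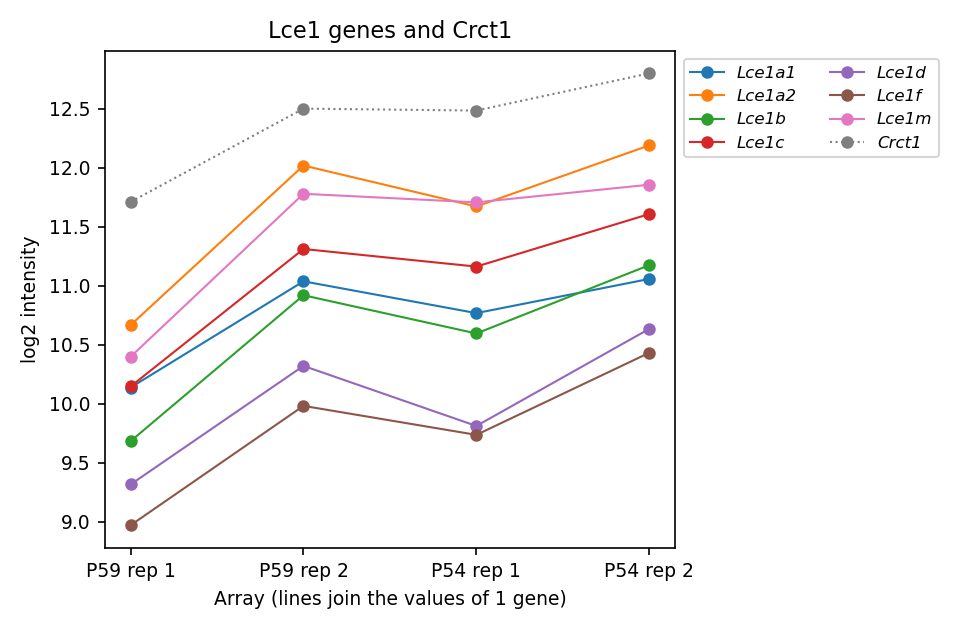
Log2 intensity of the 7 Lce1 genes and of Crct1 (dotted) on each array, with P59 left of P54; a line joins the values of 1 gene, and heights of different genes are not comparable. All lines are lowest at P59 replicate 1 and highest at P54 replicate 2, and P59 replicate 2 lies above P54 replicate 1.

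Krtdap, Dmkn, Sbsn and Calml3 encode secreted keratinocyte proteins (Krtdap, dermokine and suprabasin) and an epithelial calmodulin-like protein. All 4 were lower in both P59 arrays than in either P54 array, by small amounts of -0.27 to -0.15, with limma adjusted p-values of 0.934 or more. Dmkn was at 13.67 and 13.55 at P59 and at 13.87 and 13.88 at P54. The replicates of each group differed by at most 0.14 in these 4 brightest sets. A further set of Sbsn, with a mean of 12.58, was at 12.13 and 12.72 at P59 and at 12.70 and 12.78 at P54. There the groups overlapped and P59 replicate 1 was the lowest (difference -0.32). In the remaining set of Sbsn, of the _x_at kind, both P59 arrays were lower (difference -0.17).

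Of the lipid genes, Alox12b and Aloxe3 encode the lipoxygenases that act in turn on the linoleate-bearing ceramides of the lipid envelope. Alox12b was at 8.63 and 9.04 at P59 and at 9.14 and 9.08 at P54, and Aloxe3 at 8.29 and 8.60 at P59 and at 8.66 and 8.88 at P54. Their differences were -0.28 and -0.33, with both P59 arrays below both P54 arrays and P59 replicate 1 the lowest. Abca12, the lipid transporter of lamellar granules, had a mean below the filter and was at 5.43 and 5.72 at P59 and at 5.58 and 7.16 at P54.

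Among the genes of processing and shedding, Cdsn, which encodes the corneodesmosome protein corneodesmosin, was at 11.26 and 11.32 at P59 and at 11.74 and 11.77 at P54. Its groups were apart and its replicates close (difference -0.46, limma adjusted p = 0.801). Asprv1, the protease that cuts profilaggrin, was at 11.63 and 11.37 at P59 and at 11.82 and 12.04 at P54 (difference -0.43, limma adjusted p = 0.864). The shedding proteases Klk5 and Klk7 differed by -0.31 and -0.36, with both P59 arrays below both P54 arrays. Spink5, whose product inhibits these kallikreins, differed by -0.13 and its groups overlapped, as did those of Casp14, a caspase of cornification that helps to break down filaggrin, which differed by -0.03. Grhl3, a grainyhead transcription factor needed for barrier formation in the mouse, was at 7.90 and 8.53 at P59 and at 8.58 and 8.56 at P54. P59 replicate 1 was low and P59 replicate 2 near the P54 arrays (difference -0.35, limma adjusted p = 0.917; -0.04 without P59 replicate 1).

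Other genes of the barrier, in 6 lists drawn up by role, were read from the same limma fit. Of 106 tested, 0 passed the adjusted threshold. At an unadjusted limma p under 0.05, 6 were higher (3.47% of all genes tested) and 5 lower (3.01% of all genes tested). The same shares of all genes stand beside the counts of each list below. Of 13 tested keratins and desmosome genes of the upper epidermis 0 were higher and 1 lower at that unadjusted p. Differences below 0 were found in 12 of 13 (41.6% of all genes tested). Pkp3, a desmosomal plakophilin, differed by -0.68 (limma adjusted p = 0.669), Krt1, the spinous layer keratin, by -0.49 and Krt80 by -0.36. Of 11 tested further envelope genes 1 was higher and 0 lower. Cst6, a cystatin that restrains the protease that activates Tgm3, was at 13.03 and 13.15 at P59 and at 12.56 and 12.25 at P54 (difference 0.69, limma adjusted p = 0.585). Kprp differed by -0.66 and Hrnr, which encodes the filaggrin relative hornerin, by 0.50. Of 25 lipid barrier enzymes and transporters 0 were higher and 0 lower, and the 3 with the smallest p, Elovl1 (-0.41), Dgat2 (-0.37) and Smpd1 (-0.41), had differences below 0.

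Of 21 tested shedding proteases and inhibitors 3 were higher and 1 lower at that unadjusted p. Klk10, a kallikrein, was at 9.23 and 9.46 at P59 and at 8.57 and 8.46 at P54 (difference 0.83, limma adjusted p = 0.460). Wfdc12 differed by 0.73 and Wfdc5 by -0.60. Of 23 differentiation transcription factors 1 was higher and 0 lower. Ehf, an ETS factor of epithelia, was at 7.48 and 7.80 at P59 and at 6.57 and 6.02 at P54 (difference 1.35, SE 0.26, limma adjusted p = 0.179). Its P54 mean of 6.29 lay below the filter of 6.58, which Ehf passed through its P59 values. Zfp750 differed by -0.46 and Klf5 by -0.39. Of 13 tight and gap junction genes 1 was higher and 3 lower. Cldn4, a claudin, was at 7.61 and 6.28 at P59 and at 8.14 and 8.99 at P54 (difference -1.62, SE 0.41, limma adjusted p = 0.382). Gjb5 differed by -0.59. Gjb2, a connexin gene, was at 9.89 and 7.79 at P59 and at 7.54 and 7.59 at P54, and differed by 1.27 (limma adjusted p = 0.723), or by 0.22 without P59 replicate 1.

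Markers of other cells moved with the groups too, and their part in these results was not tested. The inner root sheath is the sheath of the growing hair in which Tgm3 and, in human skin, Rptn are also known. The summed intensity of 7 of its markers was 12098 and 2151 at P59 and 742 and 391 at P54, with Krt73 below the filter. Within P59 this sum was larger in replicate 1. Rptn (log2 8.06 and 9.29) and Tgm3 (log2 7.50 and 7.65) were higher in P59 replicate 2, and a link to the sheath was not tested. Of the 6 tested markers 6 had a difference above 0 (58.4% of all genes tested). Of these, 5 had an unadjusted limma p under 0.05 (3.47% of all genes tested). Krt25 differed by 4.51, Tchh by 3.92 and Krt27 by 3.70. Their P54 means of 5.85, 6.38 and 5.71 lay below the filter of 6.58, so they passed it through their P59 values. These counts of tested markers therefore lean towards markers that are higher at P59. Of 7 hair shaft markers 6 had a probe set, with a summed intensity of 2209 and 551 at P59 and of 401 and 357 at P54. Krt35 and Krt86 were below the filter, and Krt31, Krt33b and Krt81 differed by 1.71, 1.48 and 1.48. Without P59 replicate 1 they differed by 0.68, 0.39 and 0.71, and without P59 replicate 2 by 2.74, 2.56 and 2.25. Their P54 means of 5.85, 5.88 and 6.52 also lay below the filter, which they passed through their P59 values. The 6 basal epidermis markers summed to 39356 and 36822 at P59 and to 46468 and 49989 at P54. Differences below 0 were found in 6 of 6 (41.6% of all genes tested). An unadjusted limma p under 0.05 was found in 2 of them (3.01% of all genes tested were lower at that p). Itgb4 differed by -0.87, Col17a1 by -0.61 and Krt5 by -0.45.

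Of 5 neutrophil markers 4 had a probe set, with a summed intensity of 514 and 825 at P59 and of 195 and 232 at P54. The defining granule genes Mpo and Ngp were below the filter, and S100a8 (2.17) and S100a9 (1.71), which stressed keratinocytes also express, were higher. The P54 means of S100a8 (6.35) and S100a9 (5.89) lay below the filter of 6.58, which both passed through their P59 values. S100a8 was 1 of the 2 genes called over all genes (limma adjusted p = 0.0387), while 0 genes were called without the filter or with the stricter one. The 4 sebaceous gland markers with a probe set summed to 17000 and 18923 at P59 and to 16275 and 17242 at P54, with Mc5r below the filter and differences of 0.16 for Pparg, 0.10 for Scd1 and -0.003 for Elovl3. The 5 skeletal muscle markers summed to 89875 and 65680 at P59 and to 86771 and 70700 at P54, with differences of -0.36 for Ckm, 0.14 for Tnnt3 and 0.08 for Mylpf. The sebaceous and muscle sums overlapped between the groups, and the sheath, shaft, basal and neutrophil sums did not.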

How the data were processed

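The authors deposited 1 table of linear intensity values per probe set for the 4 arrays; RMA and Affymetrix Expression Console are named per the submitters' processing notes, with versions not given in the sources used here. RMA draws arrays towards one distribution, so a change shared by most genes would not show. The intensities were converted to log2 with nothing added. Of 45101 probe sets, 34945 non-control sets carry exactly 1 symbol in the platform annotation from GEO; 932 with several were left out. Each gene was read from its brightest set on average, and those over a mean log2 value of 6.58 (the 40th percentile) were tested. The fit used limma 3.58.1 under R 4.3.3 (lmFit, eBayes), with Benjamini-Hochberg adjustment over 10916 genes at 0.05. The number of arrays limits precision: 2 residual degrees of freedom plus a prior of 8.18, and an exact two-sided permutation test cannot go below 0.333. In 20 simulated runs of this comparison on 10916 genes, 200 were changed, with noise drawn from limma's prior spread independently for each gene. The adjusted threshold recovered 24.9% of 2-fold and 98.4% of 4-fold changes and called 7.85 unchanged genes per run on average. These rates do not carry over to genes with a wider spread, such as Krt25, Tchh and Krt27. They differed by 4.51, 3.92 and 3.70, with limma adjusted p-values of 0.141 to 0.179. Members and lists were chosen with earlier results of these data known, so no list was tested. The naming rule covered members at an unadjusted p under 0.05 or separate by 1.5-fold, Lor, Flg and Ivl, and the 3 genes of smallest p in each other list; other members whose arrays are printed were chosen after their values were seen. Promoter windows are RefSeq's (GRCm38.p6) and identities come from global alignment. Alternatives were other filters, all probe sets, repeated quantile normalization, a pseudocount of 16, an intensity trend, a replicate block and leaving out each array.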

Additional observations from a re-analysis of the deposited data

How the results depend on the processing

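The members' median difference of -0.33 was -0.35 to -0.33 under the other filters, probe set rules, scalings and the block, and -0.44 to -0.094 when 1 array was left out. The number of tested members below 0 was 27, and 23 to 28 with 1 array left out. Members at an unadjusted limma p under 0.05 and higher at P59 numbered 3, or 1 with the filter at the 60th percentile, which no longer tests all of them. With the mean of all probe sets they numbered 2, as Rptn then fell below the filter and was not tested. Those lower numbered 4, or 1 when each probe set was tested, 7 with an intensity trend, 7 with the replicate block and 2 to 11 with 1 array left out. Over all genes, 708 had an unadjusted limma p under 0.05, or 560 when each probe set was tested, 729 with an intensity trend, 755 with the replicate block and 273 to 2030 with 1 array left out. The 2 genes called among all genes became 0 without the filter, with the 60th percentile filter, with the mean of all sets, with each set tested, with repeated quantile normalization and with the pseudocount of 16, where 457 to 1122 had an unadjusted limma p under 0.05; 29 to 402 were called with 1 array left out, and the cause was not tested. The labels do not say whether the replicate numbers pair the samples. Deviations of same-numbered arrays had a correlation of -0.04 across genes, which cannot exclude a pairing that acts on some genes only. With the replicate block 156 genes were called, among them Rptn (limma adjusted p = 7.42e-05) and Tgm5 (limma adjusted p = 0.0177). The sign of 8 members, none past the threshold, turned when 1 array was left out, and their ranges over the 4 such fits were -0.25 to 0.33 for Ivl, -0.086 to 0.15 for Flg, -0.13 to 0.070 for Casp14, -0.43 to 0.17 for Spink5, -0.78 to 0.12 for Lce1a1, -1.27 to 0.088 for Lce1a2, -1.20 to 0.035 for Lce1b and -0.91 to 0.098 for Lce1d; the cause was not tested. Signal limits the 6 members below the filter, for which no test is given.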
